A study of Mus musculus with 3 samples.

Results

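The nuclear factor I (NFI) family of transcription factors was followed in 3 medulloblastomas, each from a separate mouse. Its 4 genes, Nfia, Nfib, Nfic and Nfix, were taken by symbol from the 19744 genes of the count tables, and together they held 18810 of 2723430 counts. All 3 mice were G-Smo animals (genotype hGFAP-Cre/SmoM2, C57BL/6 background) treated with POx-palbo, the CDK4 and CDK6 inhibitor palbociclib carried in a polyoxazoline nanoparticle. Each received 5 daily intraperitoneal doses of 25 mg/kg from postnatal day 10, and tumours were taken on postnatal day 16. The human GFAP promoter drives Cre in neural stem cells that give rise to neurons and glia, so SmoM2, an activated form of the Hedgehog gene Smo, is not confined to granule neuron progenitors. The 3 tumours form a single group, and untreated tumours are not analysed here, so comparisons were made between barcodes of the same tumours and say nothing of the drug.

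NFI proteins bind the sequence TTGGC, alone or as an inverted pair, and share a conserved N-terminal domain for DNA binding and pairing. In the cerebellum Nfia, Nfib and Nfix are known to act in postmitotic granule neurons, where they promote axon and dendrite formation and radial migration. In the developing nervous system the same 3 factors also take part in the switch to making glia. Nfic is best known for its role in tooth root formation and is more broadly expressed.

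Single cells were captured by Drop-seq, which tags the 3' end of each mRNA with a barcode for the cell and a unique molecular identifier (UMI), and the values are UMI counts. Tumours 1, 2 and 3 gave 8827, 2330 and 9802 barcodes with medians of 84, 85 and 105 counts. Barcodes with at least 200 counts, 1060, 148 and 1059 of them, were split by detection of Neurod1, a differentiation factor of granule neurons, and of the proliferation genes Mki67 or Top2a. At most 8 barcode sequences were shared by any 2 tumours. Tumour 2 had few deep barcodes and the highest mitochondrial share (11.08% of counts in these barcodes, against 5.64% and 6.30% in tumours 1 and 3), so its values carry the widest intervals.

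All 4 members were detected in all 3 tumours. Nfib, over all barcodes, had 3510, 4030 and 2975 CPM (counts of the gene per 1000000 counts of all genes) in tumours 1, 2 and 3, a mean of 3505 ± 528 (SD, n = 3). Nfia had 3119, 2140 and 1945 CPM, a mean of 2401 ± 629 (SD, n = 3), and was highest in tumour 1, where the 95% Poisson interval of 3018 to 3223 lay above those of the other tumours. Such intervals cover counting error only. Nfix had 1009, 873 and 899 CPM, a mean of 927 ± 72.4 (SD, n = 3), the closest of these 3 genes between tumours relative to its level. Nfic had 187, 221 and 224 CPM, from 215, 55 and 296 counts, a mean of 211 ± 20.5 (SD, n = 3). Counts of 3' tags are not scaled for gene length or capture, so no order of expression between the 4 genes is drawn from them.

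Barcodes too shallow to be classed also carried NFI mRNA. In barcodes of 50 to 99 counts Nfia had 3145, 2136 and 2168 CPM, and Nfib 2995, 4017 and 2880, in tumours 1, 2 and 3. Nfib was higher in barcodes of 200 to under 500 counts of tumour 1, at 4427 CPM, and of tumour 3, at 3282. Nfix had 984, 898 and 972 CPM in the shallowest barcodes and 796, 329 and 633 CPM in those of at least 500 counts, the last from 188, 3 and 89 counts. Nfic had 157, 153 and 173 CPM in the shallowest and 271, 219 and 213 CPM in the deepest barcodes. Between these 2 bins the values of Nfia and Nfib overlapped, and those of Nfix and Nfic did not. How many of all genes do not overlap was not counted. The deepest Nfic values came from 64, 2 and 30 counts. In tumour 2 the Poisson intervals of the deepest barcodes included its shallowest values, at 67.8 to 961 CPM for Nfix and 26.5 to 792 CPM for Nfic. That of Nfic in tumour 3, 144 to 304 CPM, did so too. Those of Nfix in tumours 1 and 3 and of Nfic in tumour 1 did not. Comparisons were restricted to at least 200 counts.

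**Figure D1:**
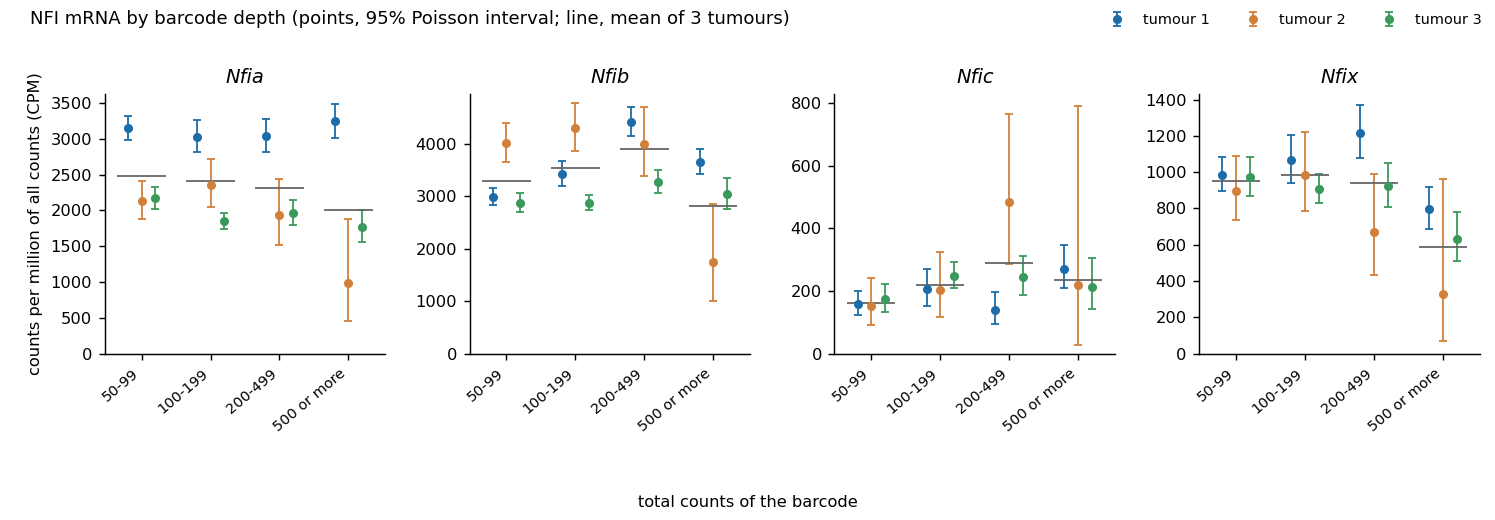
CPM (y axis) of each NFI gene against the total counts of the barcode (x axis, 4 bins), per tumour with 95% Poisson intervals; grey lines are means of 3 tumours. Tumour 1 has the highest Nfia in every bin, and tumour 2 at 500 or more counts rests on 9 barcodes.

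Nfib and Nfix were higher in barcodes with Neurod1 and neither proliferation gene than in barcodes with Mki67 or Top2a and no Neurod1. The first class, called Neurod1 only, held 249, 34 and 286 barcodes in tumours 1, 2 and 3, and the second, called proliferation only, 262, 41 and 256. Nfib had 5371, 5271 and 4090 CPM in Neurod1-only barcodes of tumours 1, 2 and 3, and 3184, 2349 and 2886 CPM in proliferation-only barcodes. The values of the 2 classes did not overlap between tumours, and how many of all genes do so was not counted. The Nfib difference was 0.69 on the log2 scale (SE 0.12, 95% interval 0.46 to 0.92, edgeR Benjamini-Hochberg adjusted p = 5.9825e-07), higher in 3 of 3 tumours. Nfix had 1355, 673 and 1220 CPM against 878, 324 and 594 CPM, so tumour 2 in the first class lay below tumour 1 in the second, while within every tumour the Neurod1-only class was higher. For Nfix the log2 difference was 0.82 (SE 0.18, 95% interval 0.46 to 1.19, edgeR adjusted p = 0.0003423), higher in 3 of 3 tumours, though tumour 2 added only 6 and 4 Nfix counts. Over all 3470 genes tested, 301 passed (8.67%), 142 of them higher in Neurod1-only barcodes (4.09%), and 2 of the 4 members were among these. By CPM 15.1% of all genes were higher in 3 of 3 tumours, as 2 of the 4 members were.

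Nfia and Nfic did not pass between these classes. Nfia had 2976, 2467 and 2340 CPM in Neurod1-only and 3229, 1620 and 1635 CPM in proliferation-only barcodes. Tumour 1 went the other way from tumours 2 and 3, and its proliferation-only value was the highest of the 6. The Nfia difference was 0.20 (SE 0.13, edgeR adjusted p = 0.4648), with a 95% interval of -0.06 to 0.46 whose upper bound is close to the lower bounds for Nfib and Nfix. Nfic had 248, 336 and 270 CPM against 233, 1053 and 237 CPM, from 26, 3 and 27 against 31, 13 and 26 counts. Its difference of -0.11 (SE 0.33, edgeR adjusted p = 0.9339) had a wide interval, -0.76 to 0.55, and the value of 1053 CPM in tumour 2 stood apart from the other 5. Whether the members differ from each other in this comparison was not tested.

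The call for Nfib needed tumour 1, and that for Nfix needed tumours 1 and 3. Without it the difference was 0.71 for Nfib and 1.03 for Nfix with edgeR adjusted p = 0.6736 for each, and 0 of 1592 genes passed (103 at an unadjusted p under 0.05). Without tumour 3, where 32 genes passed, Nfix gave 0.71 (edgeR adjusted p = 0.6401) and Nfib 0.88 (0.0148). DESeq2 gave similar sizes, 0.71 and 0.83, that did not pass (adjusted p = 0.3064 and 0.4681), as did barcodes of at least 300 counts, 0.73 and 0.82 (edgeR adjusted p = 0.1423 and 0.08743).

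**Figure D2:**
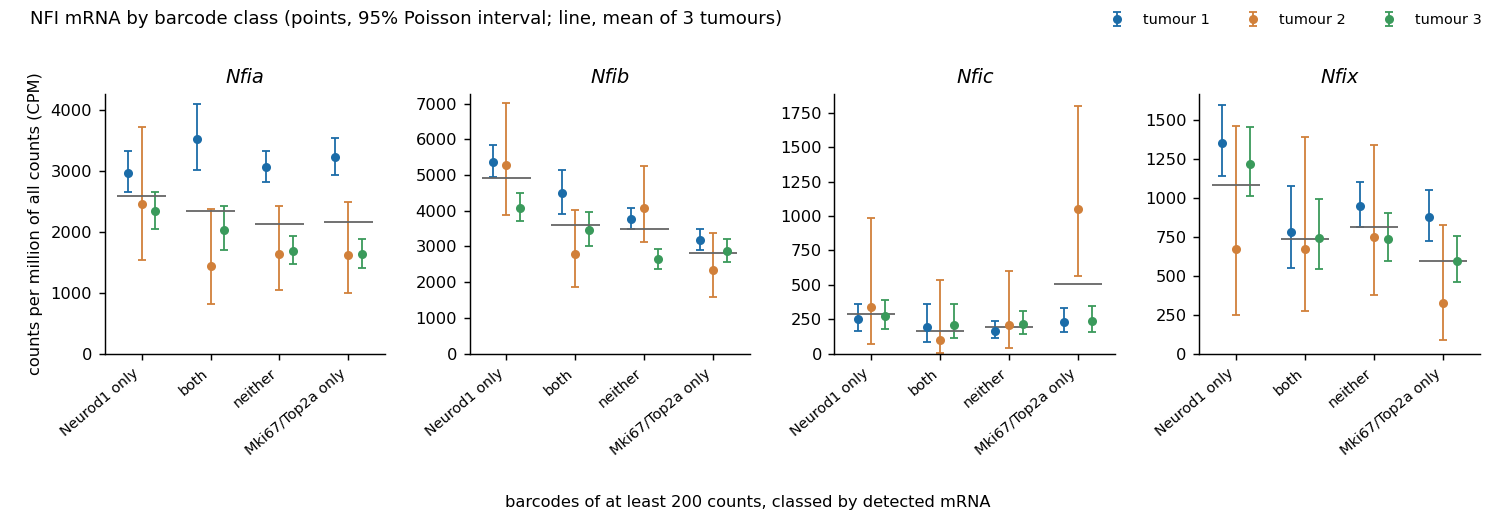
CPM (y axis) of each NFI gene in 4 classes of barcodes of at least 200 counts (x axis), per tumour with 95% Poisson intervals; grey lines are means of 3 tumours. Nfib in Neurod1-only barcodes (4090 to 5371 CPM) lies above proliferation-only barcodes (2349 to 3184 CPM), and Nfia of tumour 1 is 2976 CPM or above in all 4 classes.

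Depth, mitochondrial share and marker mRNA also differed between the 2 classes. Median counts per barcode were 346, 243 and 301.5 in Neurod1-only against 431.5, 270 and 335 in proliferation-only barcodes, and mitochondrial shares 4.56%, 9.05% and 5.45% against 5.91%, 12.72% and 6.41%. With barcodes of 200 to under 500 counts alone the differences were 0.62 for Nfib (edgeR adjusted p = 0.0001591) and 0.86 for Nfix (0.003514). With at most 10% mitochondrial counts they were 0.70 (edgeR adjusted p = 1.71e-06) and 0.87 (0.0002314). Of 8 tested granule neuron markers 8 rose in Neurod1-only barcodes, where 4.09% of all genes did. Among them were the axonal adhesion gene Cntn2 (3.20), the splicing regulator Celf4 (2.72) and the growth cone gene Gap43 (1.51). Summed granule neuron markers, with Neurod1 not on the list, stood at 4970, 3589 and 5010 CPM against 1149, 2916 and 1306 CPM. Of 8 tested granule progenitor markers, 1 fell, the Hedgehog target Sfrp1 (-0.51, edgeR adjusted p = 0.01938), as did 4.58% of all genes. The transcription factor gene Atoh1 did not pass (-1.19, edgeR adjusted p = 0.1192). Pax6 (0.63, edgeR adjusted p = 0.1677) and Barhl1 (0.54, 0.225) of this list went the other way and did not pass. The part of these differences in those of Nfib and Nfix was not tested.

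Each split taken alone gave smaller differences for Nfib and Nfix that did not pass. With Neurod1, Nfib had 5102, 3939 and 3850 CPM, and without it 3524, 3294 and 2751 CPM, a log2 difference of 0.41 (SE 0.14, 95% interval 0.13 to 0.69, edgeR adjusted p = 0.1731) with the higher value in 3 of 3 tumours. Nfix had 1177, 674 and 1038 CPM against 920, 555 and 672 CPM, a difference of 0.46 (SE 0.18, edgeR adjusted p = 0.3054), also higher in 3 of 3 tumours. Nfia (0.18, adjusted p = 0.8517) and Nfic (-0.02, 0.9942) were nearer to 0. In this split 64 of 5832 genes passed (1.1%), 48 of them higher with Neurod1 (0.823%), and 732 were higher in 3 of 3 tumours (12.6%), where 3 of 4 members were. Without tumour 2, Nfib gave 0.52 (edgeR adjusted p = 5.719e-05) and Nfix 0.49 (0.03065), and 119 genes passed. Nfib also passed without barcodes called another cell type (0.47, edgeR adjusted p = 0.00374) and without TMM scaling (0.46, 0.02191). In barcodes of 200 to under 500 counts Nfib (0.47, edgeR adjusted p = 0.002431) and Nfix (0.60, 0.03667) both passed. Among 13 alternatives that kept all tumours, Nfib did not pass in 10 and Nfix in 12. DESeq2 gave 0.39 and 0.42 (adjusted p = 0.9996 for each). Without tumour 1 or tumour 3 neither gene passed (edgeR adjusted p = 0.9978 and 0.9999 for each).

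Barcodes with Mki67 or Top2a had lower values of Nfib and Nfix in all 3 tumours, without passing. Nfib had 3530, 2553 and 3094 CPM with these genes and 4360, 4535 and 3276 CPM without them, a log2 difference of -0.30 (SE 0.11, edgeR adjusted p = 0.1778). Nfix had 853, 484 and 648 CPM against 1099, 721 and 951 CPM, a difference of -0.44 (SE 0.17, edgeR adjusted p = 0.1676). Nfia (-0.03, adjusted p = 0.9766) was lower in 2 of 3 tumours, and Nfic (0.22, 0.923) was lower in 1 of 3. Of the 5832 genes, 169 passed (2.9%), and 952 were lower in 3 of 3 tumours (16.3%), against 2 of 4 members. Nfix passed in this split without tumour 2 (-0.43, edgeR adjusted p = 0.04951) and without barcodes called another cell type (-0.50, 0.03489). It did not pass in 12 of 13 alternatives that kept all tumours, among them DESeq2 (-0.46, adjusted p = 0.9988). Nor did it pass without tumour 1 (-0.57) or without tumour 3 (-0.43). Nfib passed in no alternative, with a lowest edgeR adjusted p of 0.05854. The splits use the same barcodes, so their results are not separate evidence.

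**Figure D3:**
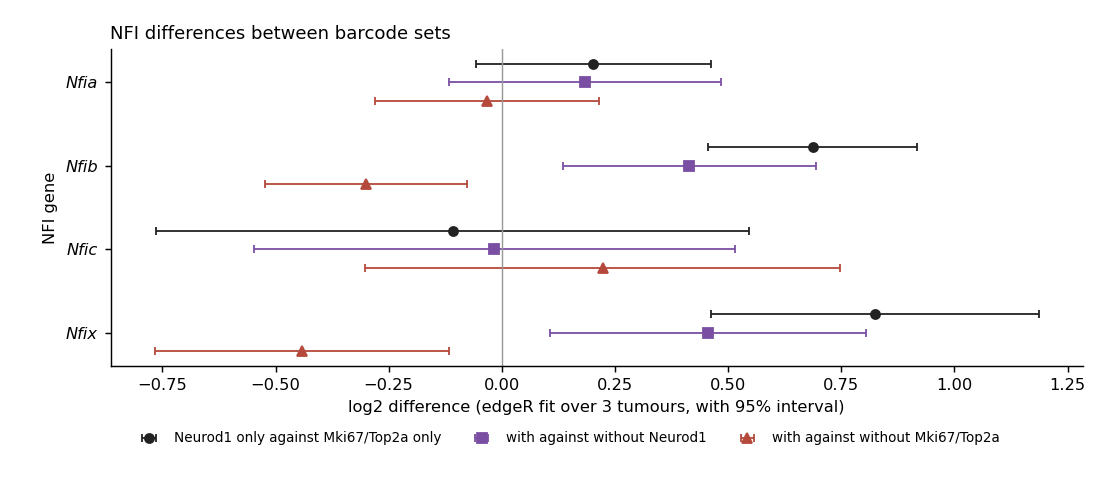
Log2 difference (x axis) of each NFI gene (y axis) in 3 splits of barcodes, as points with 95% intervals from edgeR fits over 3 tumours. Nfib (0.69) and Nfix (0.82) have the largest differences between Neurod1-only and proliferation-only barcodes, and the intervals for Nfia and Nfic include 0 in all 3 splits.

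Barcodes with both kinds of mRNA, and barcodes with neither, lay between these classes for Nfib by mean. In barcodes with both, Nfib had 4507, 2795 and 3462 CPM, a mean of 3588 ± 863 (SD, n = 3), and in barcodes with neither 3774, 4088 and 2636 CPM, a mean of 3499 ± 764 (SD, n = 3). These middle classes changed order between tumours and did not differ beyond their spread. Neurod1-only barcodes averaged 4911 ± 712 and proliferation-only barcodes 2806 ± 423 (SD, n = 3 each). Nfix averaged 1083 ± 361 in Neurod1-only, 813 ± 119 in neither, 734 ± 54.8 in both and 599 ± 277 in proliferation-only barcodes (SD, n = 3 each), and neighbours in this order did not differ beyond their spread. Nfia averaged 2595 ± 337, 2339 ± 1076, 2161 ± 925 and 2131 ± 811 CPM in Neurod1-only, both, proliferation-only and neither (SD, n = 3 each), which do not differ beyond their spread. Whether the Neurod1 difference itself differed between barcodes with and without proliferation mRNA was tested as an interaction. In edgeR 0 of 4 members passed (Nfib -0.17 and Nfix -0.44, adjusted p = 0.9998 for each). Nfic (-1.18) was the only member at an unadjusted p under 0.05, as were 197 of all 5832 genes (3.38%), of which 2 passed after adjustment (0.0343%). In DESeq2 no gene passed, and 72 were at an unadjusted p under 0.05.

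Detection per barcode was read after thinning each barcode to 200 counts, since deeper barcodes show more genes. At this depth Nfib was found in 51.9%, 52.0% and 43.8% of barcodes of tumours 1, 2 and 3, Nfia in 41.2%, 25.7% and 29.5%, Nfix in 17.8%, 12.2% and 15.1%, and Nfic in 3.58%, 6.76% and 4.91%. Without thinning, the means over tumours were 61.6% for Nfib, 45.4% for Nfia, 24.3% for Nfix and 8.38% for Nfic. Any of the 4 was found in 74.7%, 70.3% and 66.9% of thinned barcodes. In Neurod1-only barcodes Nfib was found in 61.8%, 70.6% and 51.4%, against 45.8%, 39.0% and 43.8% of proliferation-only barcodes, higher within each tumour. Nfix was found in 24.1%, 11.8% and 22.7% of Neurod1-only and 14.5%, 4.88% and 9.38% of proliferation-only barcodes, higher within each tumour. In tumour 2 these Nfix shares are 4 of 34 and 2 of 41 barcodes.

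Barcodes called microglia or macrophages by their markers serve as a background for free RNA. Pooled over tumours, these shares were lower in them for 3 members. Of 35 such barcodes (median 465 counts before thinning, against 353.5, 255.5 and 301 in all barcodes of tumours 1, 2 and 3), 9 held Nfib (25.7%, exact 95% interval 12.5% to 43.3%), 6 Nfia (17.1%) and 1 Nfix (2.86%). For Nfic the share was 5 of 35 (14.3%, interval 4.81% to 30.3%), at or above that of the whole. Free RNA and Nfic mRNA of these cells themselves were not told apart, so no background was read for Nfic.

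The summed level of the 4 genes, with 3 tumours pooled, was 2045 CPM (95% Poisson interval 1523 to 2689) in called microglia and macrophages. It was 7625 CPM in barcodes with no other type called. By tumour it was 3733, 608 and 1441 CPM against 8832, 7294 and 6336 CPM in tumours 1, 2 and 3. The intervals for called microglia and macrophages of tumours 1 (2500 to 5362 CPM) and 3 (880 to 2225 CPM) did not meet. Tumour 1 gave 13 of the 18 Nfia counts in these cells. Pooled over tumours, Nfib stood at 762 CPM (95% Poisson interval 459 to 1190) in the 35 called microglia and macrophages and at 3804 CPM (3671 to 3940) in the 2144 barcodes with no such call. Nfia stood at 722 CPM (428 to 1141) against 2633 CPM (2523 to 2747), and Nfix at 40.1 CPM, from 1 count, against 961 CPM. Nfic was the exception, at 521 CPM (278 to 891) from 13 counts against 226 CPM (195 to 261). The 62 barcodes called astrocytes had 2207 CPM of Nfia (1810 to 2664) and 3453 CPM of Nfib (2952 to 4015), and 49 of them came from tumour 1. Their Nfix was 633 CPM (430 to 899) from 31 counts, against 895 to 1031 CPM in barcodes with no call. Within tumour 1 called astrocytes were lower than barcodes with no call, with intervals that did not meet, for Nfia (1822 to 2785 against 3135 to 3491 CPM), Nfib (2826 to 3995 against 4043 to 4445 CPM) and Nfix (407 to 929 against 982 to 1186 CPM). In tumour 3, with 13 called astrocytes, the intervals of these 3 genes overlapped, and tumour 2 had no called astrocytes. Called astrocytes of tumour 1 were deeper (median 734 counts) than its barcodes with no call (341). The barcodes of at least 500 counts of tumour 1 include its called astrocytes of that depth. Against this set the intervals of called astrocytes met for Nfib (3420 to 3912 CPM) and Nfix (687 to 919 CPM). They did not meet for Nfia (3015 to 3479 CPM). Of these 49 astrocyte calls, 5 were Neurod1-only, 8 proliferation-only and 8 held both kinds of mRNA. In 8 barcodes called endothelial or mural Nfia had 471 CPM, Nfib 874 CPM and Nfix 0 of 14876 counts, and in 19 called oligodendrocyte lineage Nfia had 1473 CPM and Nfib 2094 CPM. These are sums over cells of 3 tumours, described without a test. Without all barcodes called another cell type, 80, 9 and 34 in tumours 1, 2 and 3, the differences between Neurod1-only and proliferation-only barcodes were 0.68 for Nfib (edgeR adjusted p = 1.024e-05) and 0.85 for Nfix (0.000289).

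**Figure D4:**
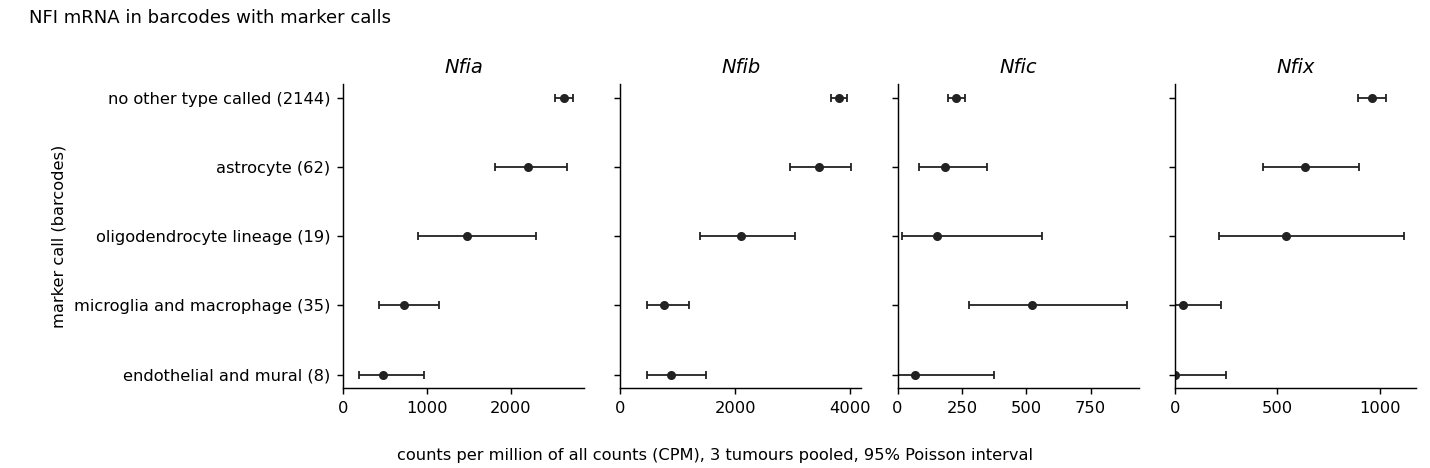
CPM (x axis) of each NFI gene by marker call (y axis, number of barcodes in brackets), pooled over 3 tumours with 95% Poisson intervals. Nfia, Nfib and Nfix are lowest in called microglia, macrophages, endothelial and mural cells, while Nfic is highest in called microglia and macrophages (521 CPM).

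The make-up of NFI counts differed between tumours mainly in the shares of Nfia and Nfib. Over all barcodes Nfia gave 39.9%, 29.5% and 32.2% of NFI counts in tumours 1, 2 and 3, Nfib 44.9%, 55.5% and 49.2%, Nfix 12.9%, 12.02% and 14.9%, and Nfic 2.39%, 3.05% and 3.70%. In tumour 1 the Nfia share was 29.9% in Neurod1-only and 42.9% in proliferation-only barcodes. In tumour 3 it was 29.5% and 30.5%, and in tumour 2 it was 28.2% and 30.3%, from 22 and 20 counts. In barcodes with neither kind of mRNA it was 38.5%, 24.5% and 32.0% in tumours 1, 2 and 3. The Nfia share was thus closest between tumours in Neurod1-only barcodes, and tumour 1 had the highest share in each class.

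**Figure D5:**
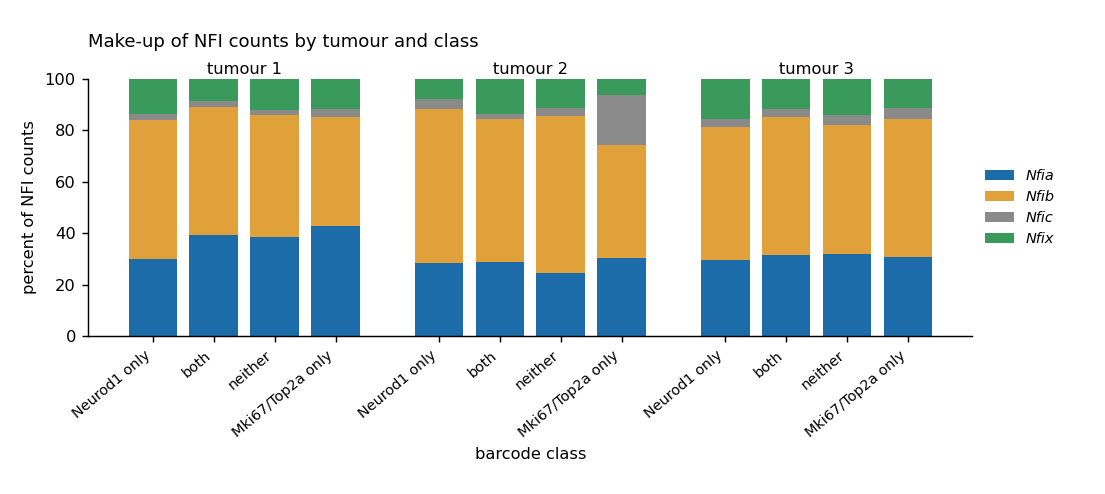
Percent of NFI counts given by each of the 4 genes (stacked bars, y axis) in each barcode class (x axis) of the 3 tumours. Nfia in tumour 1 goes from 29.9% in Neurod1-only to 42.9% in proliferation-only barcodes, and Nfic in tumour 2 (19.7% in proliferation-only) rests on 13 counts.

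Genes tied to NFI factors by earlier knowledge were mostly too rare to test. Of 7 granule neuron genes known as NFI targets, 2 had enough counts to be compared between Neurod1-only and proliferation-only barcodes. They went opposite ways, and 1 of them passed as higher, where 4.09% of all genes did. Cntn2 had 1269, 449 and 590 CPM in Neurod1-only and 97.6, 162 and 91.3 CPM in proliferation-only barcodes, and rose by 3.20 (SE 0.30, edgeR adjusted p = 1.9948e-22) in 3 of 3 tumours. Cntn2 also stands on the granule neuron marker list above. Cdh2, which encodes N-cadherin, did not pass (-0.38, adjusted p = 0.7419). The late maturation genes of this list were at or near 0 in barcodes of at least 200 counts, with 0 counts of the GABA receptor gene Gabra6, 1 of the glutamate receptor gene Grin2c and 1 of Wnt7a. Ephb1 had 11 counts and Tiam1 19.

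Of 10 glial genes or repressed targets linked to NFI factors, 3 were tested between these classes and 1 fell, against 4.58% of all genes. Hes1, a Notch effector that Nfia is known to repress in neural progenitors, had 66.8, 0 and 90.0 CPM in Neurod1-only and 225, 81.0 and 247 CPM in proliferation-only barcodes. Its log2 change was -1.59 (SE 0.50, edgeR adjusted p = 0.02273). It was lower in tumours 1 and 3, while tumour 2 added only 0 and 1 Hes1 counts. Ezh2, a histone methyltransferase gene, did not pass (-0.54, adjusted p = 0.1902), nor did the glutamate transporter gene Slc1a3 (0.16, 0.92). Of 4 partner and timing genes only Sox9, which acts with Nfia in glial cells, had enough counts, and it did not pass (-1.01, edgeR adjusted p = 0.0902). Rest, Etv1 and Nfatc4 had 21, 16 and 5 counts. In the split by Neurod1, Cntn2 rose (1.55, edgeR adjusted p = 1.6493e-08), and 0 of 4 tested glial genes passed. Before adjustment 1 of these, Hes1, had a p under 0.05, as did 8.71% of all genes. By Mki67 or Top2a, Cntn2 fell (-1.57, edgeR adjusted p = 6.6102e-08), and 0 of 4 glial genes passed. Before adjustment none of these had a p under 0.05, against 9.83% of all genes. Astrocyte markers, 4 of which stand on the glial list, summed to 1469, 449 and 850 CPM in Neurod1-only and 1344, 1134 and 941 CPM in proliferation-only barcodes, with Aldh1l1 at 0 in both classes of all 3 tumours, and their part in these values was not tested.

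Promoter sequence was read for the core NFI motif, TTGGC or GCCAA on the other strand, in the 250 bases before RefSeq gene starts (GRCm38.p6). The core occurs in 41.51% of 32851 such windows and the inverted pair, TTGGC and GCCAA with 5 bases between them, in 0.03653%, so a match is common and is a description only. Windows were found for 3 of the 4 members and 16 of 21 listed genes. Shown are Cntn2, the tested NFI target that rose, and the second of 4 Nfix starts, with the core in capitals.
Cntn2, chr1:132542941-132543190, minus strand: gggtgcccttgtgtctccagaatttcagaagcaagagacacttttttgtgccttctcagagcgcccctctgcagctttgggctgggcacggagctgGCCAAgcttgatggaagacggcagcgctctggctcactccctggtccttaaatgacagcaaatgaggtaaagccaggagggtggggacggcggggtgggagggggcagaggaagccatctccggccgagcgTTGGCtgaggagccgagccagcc
Nfix, chr8:84775829-84776078, minus strand: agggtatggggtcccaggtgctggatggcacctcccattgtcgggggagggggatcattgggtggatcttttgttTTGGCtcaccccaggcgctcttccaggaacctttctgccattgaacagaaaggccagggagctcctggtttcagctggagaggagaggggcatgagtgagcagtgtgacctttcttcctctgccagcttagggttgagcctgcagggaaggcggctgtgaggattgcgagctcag
The Cntn2 window holds 2 cores and this Nfix window 1, and the fourth Nfix start also holds 1. No core lies in the windows of Nfia, of Nfic and of the first and the third Nfix starts. The motif CAGATG, an E-box form bound by Neurod1 (CATCTG on the other strand), is found in 14.44% of windows and in 1 copy each in those of Nfia and the fourth Nfix start.

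The genes most like Nfib and Nfix were sought over 11 units of tumour and class with at least 20 barcodes each. For Nfib these were Arpp21 (Pearson r = 0.95), the neuronal RNA-binding gene Elavl3 (0.94), the chromatin remodelling gene Smarcc2 (0.93), the tubulin gene Tuba1a (0.93) and the kainate receptor gene Grik2 (0.93), among 1872 genes. For Nfix they included the creatine kinase gene Ckb (0.97), the axonal motor gene Kif5a (0.95), the RNA-binding gene Celf2 (0.94) and Tuba1a (0.94). Units of a tumour share a library, and classes were defined by Neurod1, so r describes these units only. Nfix ranked 52 among genes like Nfib (0.80), Nfia 221 (0.65) and Nfic 1441 (-0.51). In Neurod1-only barcodes Ckb had 1202, 336 and 1330 CPM in tumours 1, 2 and 3, and in proliferation-only barcodes 623, 81.0 and 457 CPM. These classes are among the units used to choose it, so the values are a description.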

How the data were processed

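UMI counts per gene and barcode were used as deposited by the authors, and no normalization is recorded for them. Per the labels' protocols, papain was used to dissociate tumours for Drop-seq. STAR and Cell Ranger are named, with no version or role, and the build as GRCh38, per the submitters' processing notes. The symbols are mouse symbols, so no coordinates were taken from that build. The 19744 rows all carry a gene name, and every barcode holds at least 50 genes, so a filter came before deposit.

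Tumours 1, 2 and 3 held 1150463, 248617 and 1324350 counts. Barcodes of at least 200 counts were classed by at least 1 UMI of Neurod1 and of Mki67 or Top2a, without further filtering. Counts were summed per tumour and class, and genes with at least 30 counts over the units were tested with edgeR 4.0.16 (quasi-likelihood, TMM, tumour as a block, Benjamini-Hochberg over all genes but those 3). SEs were taken from the log2 difference and its F statistic. The sets of a tumour come from the same animal, and their deviations from the set means correlated by 0.08 to 0.17. Counts of each tumour pair differed beyond counting noise, with chi-square over its degrees of freedom at 5.35 to 8.06. On simulated counts the fit was tested before use. Barcodes were called another type from at least 3 UMIs of at least 2 of its markers. Scrublet, used as an alternative at an expected rate of 6%, marked 6 of 1060, 29 of 148 and 6 of 1059 barcodes. The share in tumour 2 was above that rate. Marked barcodes stayed in the main sets. Without them the differences between Neurod1-only and proliferation-only barcodes were 0.69 for Nfib (edgeR adjusted p = 1.061e-05) and 0.84 for Nfix (0.0007066). DESeq2 1.42.0, R 4.3.3, Python 3.11.15, scanpy 1.11.5 and scipy 1.17.1 were used for alternatives, thinning and intervals.

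Named genes were the 4 members, 3 lists of genes tied to NFI factors, and the 5 genes most like Nfib and Nfix by r of log2(CPM + 10), centred within tumours, among genes with at least 100 counts. Of the genes like Nfix, 1 is not reported here. Members and lists were chosen with earlier results of these data known.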

Additional observations from a re-analysis of the deposited data

How the results depend on the processing

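Between Neurod1-only and proliferation-only barcodes, Nfib and Nfix were higher under all 15 alternatives. They did not pass in DESeq2 (0.71 and 0.83), with barcodes of at least 300 counts (0.73 and 0.82) or with no replicate block (0.73 and 0.80). Leaving out 1 tumour each gave 0.67 to 0.88 for Nfib and 0.71 to 1.03 for Nfix. Their adjusted p ranged from 1.866e-07 to 0.6736 and from 4.663e-05 to 0.6736. Genes called, 301 here, numbered 37 in DESeq2, 148 with no replicate block, 171 with at least 300 counts, 131 with 200 to under 500 counts and 191 with sets from thinned counts, and 0 to 400 without 1 tumour. In the Neurod1 split, 64 became 0 in DESeq2 (80 at an unadjusted p under 0.05) and with no replicate block (218), 34 with filterByExpr, 38 with at least 100 counts, 37 with 200 to under 500 counts, and 0 to 119 without 1 tumour. In the proliferation split, 169 became 33 in DESeq2, 62 with no replicate block, 111 with filterByExpr or at least 300 counts, 59 with 200 to under 500 counts, 97 with thinned sets, and 0 to 200 without 1 tumour. For the interaction, 2 became 0 in DESeq2 (72) and with no replicate block (131), and 0 to 2 without 1 tumour. DESeq2 and the fit with no replicate block used the same counts as the main fit. Leaving out tumour 2 gave 119 genes in the Neurod1 split and 200 in the proliferation split. It gave 400 between Neurod1-only and proliferation-only barcodes, and 0 for the interaction. The cause of these changes was not tested.

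Values near 0 changed sign. For Nfic these were, by Neurod1, 0.0023 without TMM, -0.36 to 0.20 without 1 tumour, 0.13 with at least 300 counts, 0.059 with at most 10% mitochondrial counts and 0.043 without other cell types. Between the exclusive classes they were -0.41 to 0.17 without 1 tumour and 0.20 with at least 300 counts. Nfia by proliferation gave -0.24 to 0.017 without 1 tumour and 0.088 with at most 10% mitochondrial counts. Without 1 tumour the interaction was -0.23 to 0.10 for Nfib and -0.59 to 0.10 for Nfix. Depth limits Nfic most, with 209 counts in barcodes of at least 200 counts.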

Other observations

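Some barcodes held UMIs of more than 1 NFI gene. How many would do so if the genes were detected independently was not computed. Of 2267 barcodes thinned to 200 counts, 663 held no NFI UMI, 962 held UMIs of 1 member, 550 of 2, 85 of 3 and 7 of all 4. In tumour 1, Nfib was found in 57.2% of barcodes with Nfia and in 48.2% of those without it. The values were 57.9% and 50% in tumour 2 and 47.8% and 42.2% in tumour 3. For Nfix the shares with and without Nfib were 19.6% and 15.9% in tumour 1. They were 9.09% and 15.5% in tumour 2, and 15.9% and 14.5% in tumour 3. With and without Nfia, Nfix was found in 18.1% and 17.7% in tumour 1. These shares were 10.5% and 12.7% in tumour 2, and 15.7% and 14.9% in tumour 3. For both Nfix pairs the direction was not the same in every tumour.

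Single barcodes reached high counts of Nfib and Nfia. Before thinning, 93, 5 and 52 barcodes of tumours 1, 2 and 3 held at least 5 UMIs of Nfib, with up to 17, 6 and 13 in 1 barcode. For Nfia 67, 0 and 15 barcodes held as many, with up to 15, 4 and 8. At most 5 UMIs of Nfix and 5 of Nfic were found in any barcode.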
